A study of Mus musculus with 29 samples.

Results

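The respiratory chain genes described here are the nuclear genes for the subunits of the mitochondrial respiratory chain and the ATP synthase. They were chosen by symbol: every mouse gene whose symbol begins with Ndufa, Ndufb, Ndufc, Ndufs, Ndufv, Sdha, Sdhb, Sdhc, Sdhd, Uqcr, Cox4i, Cox5, Cox6, Cox7, Cox8 or Atp5. Of 119 matching genes, 19 pseudogenes were left out and 100 members remained. The arrays named a probe for 97 of them, among 20956 gene symbols in all; Ndufb1, Ndufb4b and Ndufb4c had none. Testing required a probe well above background throughout at least 1 group, which 16333 genes and 96 members passed. Cox8b, a muscle isoform of a cytochrome c oxidase subunit, was well above background on 3 of 29 arrays and was not tested. The tested members were 36 subunits of complex I, 4 of complex II, 8 of complex III, 19 of complex IV and 17 of the ATP synthase. The symbol stems also took in 8 assembly factors of complex I (Ndufaf genes) and 4 of complex II (Sdhaf genes), which help to build a complex and are not part of it. They were kept as groups of their own. Ndufa4 and Ndufa4l2 were counted with complex IV.

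RNA of cultured mouse cells was measured on 29 single-colour Agilent arrays in 9 groups, all labelled male. ESC were embryonic stem cells of the HRHnG double reporter line in 2i/LIF, a culture with a pair of kinase inhibitors and the cytokine LIF that holds cells in the naive state. Diff were the same line after 7 to 8 days in Activin, CHIRON and LIF, labelled as primitive endoderm. Mid and Late were nEnd cultures, which are Diff cells passaged further in nEnd medium, at passages 7 to 10 and 14 to 15. XEN were extraembryonic endoderm cells of another line (Xen) in standard XEN medium. In the other array set, the 2iL group held 3 stem cell lines (HVMC, E14, E14-NanogGFP), 1 array each, adapted to 2i and LIF. The NACL group held the same lines, with 2 arrays of HVMC, in N2B27 supplemented by Activin, CHIRON and LIF, in both cases for at least 3 passages. EpiSC were a stable culture of primed epiblast stem cells made from stem cells of the line written HRHNG, and ADE were EpiSC driven for 4 days towards anterior definitive endoderm. ADE and NACL had 4 arrays and every other group 3. Each nEnd replicate came from its own series of differentiation and passaging; the 2iL and NACL replicates differ by line, save for the 2 NACL arrays of HVMC. For ESC, Diff, XEN, EpiSC and ADE nothing says what separates replicates, so p-values measure only the spread between these samples, which may be technical.

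The first array set (ESC, Diff, Mid, Late, XEN) and the second (2iL, NACL, EpiSC, ADE) were hybridised on different slides and read with different scanner software, so groups were compared only within a set. The labelled cell types showed their markers: Gata4 and Sox17 had mean levels of 4.32 and 4.65 in Diff against -2.29 and -6.80 in ESC, and the anterior endoderm gene Cer1 had 7.38 in ADE against 0.84 in EpiSC. Levels are log2 signal relative to the 75th percentile of the same array, and differences between groups are differences of these log2 levels. The lowest correlation between 2 replicates of a group lay between 0.956 and 0.978. The array NACL 4 stood apart from the other NACL arrays, with 79.7% of its probes well above background against 49.2% to 58.8%. It was also the only NACL array of the E14-NanogGFP line. Results that rest on it are given with and without it.

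The respiratory chain moves electrons from NADH through complex I, or from succinate through complex II, to ubiquinone, then through complex III and cytochrome c to oxygen at complex IV. Complexes I, III and IV pump protons out of the mitochondrial matrix, and the ATP synthase lets them flow back while it makes ATP. Complexes I, III, IV and the ATP synthase also hold subunits encoded by mitochondrial DNA, which are no members here, and complex II is encoded by nuclear genes alone. Naive stem cells are known to use respiration together with glycolysis, and primed epiblast stem cells to rely mostly on glycolysis with low expression of several complex IV genes.

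RefSeq promoter windows of mouse build GRCm38.p6, from 250 bases before to 50 bases after the gene start, were matched by symbol for 82 members. They were searched on both strands for 4 motifs of factors known to act on nuclear mitochondrial genes. The NRF1 motif CGCATGCG was in 10 members' windows (12.2%), beside 1.91% of the windows of all 27025 genes. The ETS motif CCGGAAG, which GABPA can bind, was in 21 (25.6%) beside 9.12%. The YY1 motif AAGATGGC was in 10 (12.2%) beside 2.88%, and 7 of those 10 belonged to complex I. The motif of the estrogen-related receptors, TCAAGGTCA, was in 2 (2.44%) beside 0.41%. The 5 windows below belong to members that the results turn on, and capitals mark a match to any of the 4 motifs, read on either strand. The window of Cox6a1, a complex IV gene, lies on the minus strand at chr5:115348909-115349208 and holds an NRF1 match and an ETS match. That of Uqcrc1, a core gene of complex III, lies on the plus strand at chr9:108936398-108936697 with an NRF1 match. That of Ndufa8, a complex I gene, lies on the minus strand at chr2:36049289-36049588 with an NRF1 match. That of Sdhd, a membrane anchor of complex II, lies on the minus strand at chr9:50603800-50604099 and holds an ETS match and a receptor match. That of Cox7a1, the muscle isoform of a complex IV subunit, lies on the plus strand at chr7:30183921-30184220, and these letters are not in its window.
Cox6a1: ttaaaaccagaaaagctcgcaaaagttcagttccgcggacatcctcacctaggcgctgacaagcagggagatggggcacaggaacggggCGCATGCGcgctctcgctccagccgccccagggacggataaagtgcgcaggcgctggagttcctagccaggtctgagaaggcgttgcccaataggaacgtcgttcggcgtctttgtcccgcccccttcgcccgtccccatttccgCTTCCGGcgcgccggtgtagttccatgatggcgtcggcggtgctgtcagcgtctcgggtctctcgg
Uqcrc1: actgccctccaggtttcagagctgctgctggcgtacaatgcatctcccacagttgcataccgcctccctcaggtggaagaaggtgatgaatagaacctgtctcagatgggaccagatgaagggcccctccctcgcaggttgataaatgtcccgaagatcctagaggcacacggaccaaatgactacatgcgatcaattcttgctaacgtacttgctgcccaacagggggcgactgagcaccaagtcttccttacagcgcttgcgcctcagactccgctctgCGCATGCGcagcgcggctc
Ndufa8: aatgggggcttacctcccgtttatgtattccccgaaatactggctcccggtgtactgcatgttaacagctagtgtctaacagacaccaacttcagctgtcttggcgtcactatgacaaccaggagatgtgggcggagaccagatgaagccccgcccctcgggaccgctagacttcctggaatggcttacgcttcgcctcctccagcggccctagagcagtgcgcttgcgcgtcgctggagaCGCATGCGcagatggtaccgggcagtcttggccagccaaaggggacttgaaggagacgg
Sdhd: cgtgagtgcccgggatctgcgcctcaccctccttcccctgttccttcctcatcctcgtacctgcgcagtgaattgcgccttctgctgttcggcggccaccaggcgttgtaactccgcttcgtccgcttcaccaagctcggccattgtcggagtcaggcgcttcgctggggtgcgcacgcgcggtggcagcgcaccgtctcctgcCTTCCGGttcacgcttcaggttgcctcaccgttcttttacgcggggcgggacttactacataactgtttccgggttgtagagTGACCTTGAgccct
Cox7a1: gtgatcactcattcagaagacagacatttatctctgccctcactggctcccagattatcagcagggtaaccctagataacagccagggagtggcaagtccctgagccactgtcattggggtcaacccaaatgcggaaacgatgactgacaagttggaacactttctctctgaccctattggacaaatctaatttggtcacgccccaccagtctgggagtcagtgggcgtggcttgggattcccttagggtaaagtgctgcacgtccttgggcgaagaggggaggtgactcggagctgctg

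The median level of all subunits was taken on each array, after the mean of each gene over its array set had been subtracted. In the first set it was 0.02, 0.12 and -0.08 in ESC and -0.04, -0.07 and 0.08 in Diff. It was -0.24, -0.45 and -0.31 in Mid, 0.14, -0.21 and 0.03 in Late, and 0.56, 0.13 and 0.37 in XEN. The 3 Mid arrays were thus the lowest of the first set, and the XEN arrays were the highest save that XEN 2 lay below Late 1. In the second set it was 0.10, 0.12 and 0.13 in 2iL, 0.21, 0.39, 0.49 and -0.07 in NACL, -0.19, -0.26 and -0.15 in EpiSC and -0.23, -0.08, -0.16 and -0.21 in ADE. All EpiSC and ADE arrays lay below all 2iL arrays, and NACL 4 lay apart from the other NACL arrays, which were the highest. The 5 scalings of the arrays that were tried (the 75th percentile, the median, quantile normalization, another background correction and the authors' own values) move these medians, and each comparison below says where they turn a direction.

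**Figure D1:**
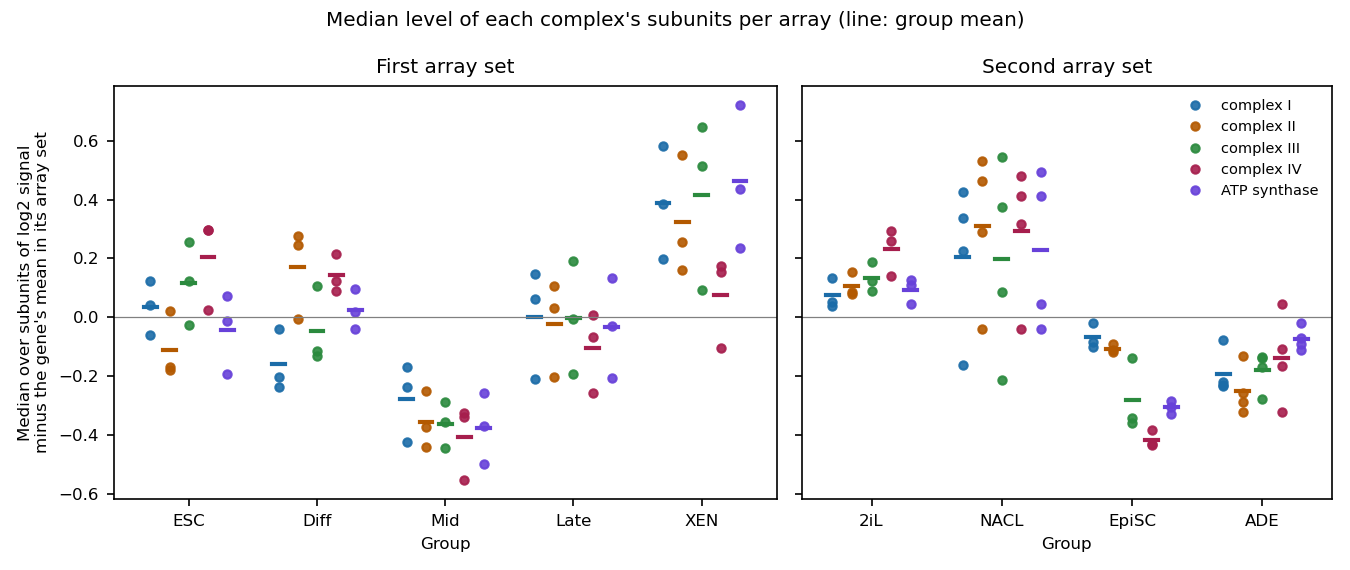
Median over the subunits of each complex of the log2 signal minus the gene's mean in its array set, for each of the 29 arrays; points are arrays, lines are group means, and the panels are the array sets. In the second set complex IV has the lowest group mean of the 5 complexes in EpiSC, and in the first set the Mid group has the lowest mean for every complex.

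The Diff minus ESC comparison addresses how the 7 to 8 days in Activin, CHIRON and LIF changed respiratory chain genes of naive stem cells. Single members moved strongly in both directions. Of 96 members, 9 rose and 15 fell, beside 23.5% of all genes called higher and 18.9% called lower. Called means an adjusted p under 0.05 in limma, with Benjamini-Hochberg adjustment over all 16333 genes. The median difference was -0.16, beside -0.04 over all genes. In these bulk samples, fewer cells of a type and less RNA of a gene per cell cannot be told apart.

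Within complex I, 3 subunits rose and 6 fell. Ndufc2, a subunit of its membrane arm, had levels of 5.03, 5.34 and 5.15 in ESC and 2.50, 3.12 and 3.25 in Diff. The groups lay far apart, and the gene was 4.64-fold lower in Diff (log2 difference -2.21, SE 0.21, adjusted p = 1.1e-08, n = 3 and 3, limma). Ndufa8, an accessory subunit on the intermembrane side, had 2.51, 2.71 and 2.52 in ESC and 3.90, 3.83 and 4.02 in Diff. It was thus 2.53-fold higher in Diff with no overlap (adjusted p = 2e-05, limma). The core subunit Ndufv1, which binds NADH, fell by 0.45, a call lost in 8 of 19 other settings.

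In complex II, the membrane anchor Sdhd had 4.58, 5.0 and 4.94 in ESC and 5.57, 6.04 and 6.08 in Diff. It rose 2.08-fold while Sdhb, the iron-sulfur subunit of the same complex, fell by 0.65 on the log2 scale (adjusted p = 2.2e-05 and 0.0036, limma). In complex III the Rieske iron-sulfur protein gene Uqcrfs1 (0.64) and the hinge protein gene Uqcrh (0.58) rose, and the core gene Uqcrc2 fell by 0.84. The Uqcrfs1 call was lost in 6 of 19 other settings and that of Uqcrh in 12 of 19.

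Among the complex IV genes, 3 isoforms known from other tissues fell. Cox6a2, the heart and muscle form of subunit 6A, had -1.16, 0.60 and -0.81 in ESC and -3.74, -3.38 and -4.24 in Diff, a 10.1-fold difference without overlap (adjusted p = 0.0025, limma). Over 19 other settings its log2 difference was -3.68 to -1.55, always with a call, so the size is uncertain. Cox6b2, the testis form of subunit 6B, had 4.83, 4.53 and 4.50 in ESC and 3.15, 2.95 and 3.41 in Diff, a 2.73-fold difference without overlap. Ndufa4l2, a paralog of Ndufa4 known to be induced by low oxygen, had 2.74, 2.99 and 1.39 in ESC and 0.05, -0.17 and -0.49 in Diff, and Ndufa4 rose by 0.49. The Ndufa4l2 call (adjusted p = 0.049) was lost in 10 of 18 other settings and that of Ndufa4 in 14 of 19.

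Of the 8 complex I assembly factors, 3 fell. Ndufaf3, which acts early in building the matrix arm, had 2.01, 2.15 and 2.04 in ESC and 0.35, -0.44 and 0.01 in Diff, a 4.27-fold difference without overlap (adjusted p = 7.4e-07, limma). In the ATP synthase, whose ring of c subunits is encoded by 3 genes for the same mature protein, Atp5g1 fell by 0.54 and Atp5g3 rose by 0.45. The call of Atp5g1 was lost in 10 and that of Atp5g3 in 14 of 19 other settings.

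The balance of directions in Diff minus ESC hung on the scaling. With each array centred on its median, the median difference of the members turned to 0.20, where that of all genes was 0.32, and 10 members were called higher and 3 lower, beside 26% and 9.09% of all genes. With quantile normalization, and likewise with the authors' values, 4 were called higher and 39 lower, beside 23.4% and 21.3% of all genes under the former and 21.9% and 22.4% under the latter. Under all 5 scalings the members' median lay below that of all genes, with a difference of -0.28 to -0.05. Cox6a2, Ndufc2 and Ndufaf3 were called lower, and Ndufs3, Sdhd and Ndufa8 higher, under all 5; Ndufs3, a core subunit of complex I, is named for this after its values were seen. Within the first scan day (2 arrays a group) the members' median was -0.26, and on the second (1 array each) it was 0.15. The count of higher calls was 4 without ESC 1, ESC 3 or Diff 3, and that of lower calls was 9 without Diff 1. Of 7 markers of naive stem cells 5 fell, with a summed signal of 93.7 to 177 multiples of the array's 75th percentile in Diff against 394 to 413 in ESC; their part in the result was not tested.

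**Figure D2:**
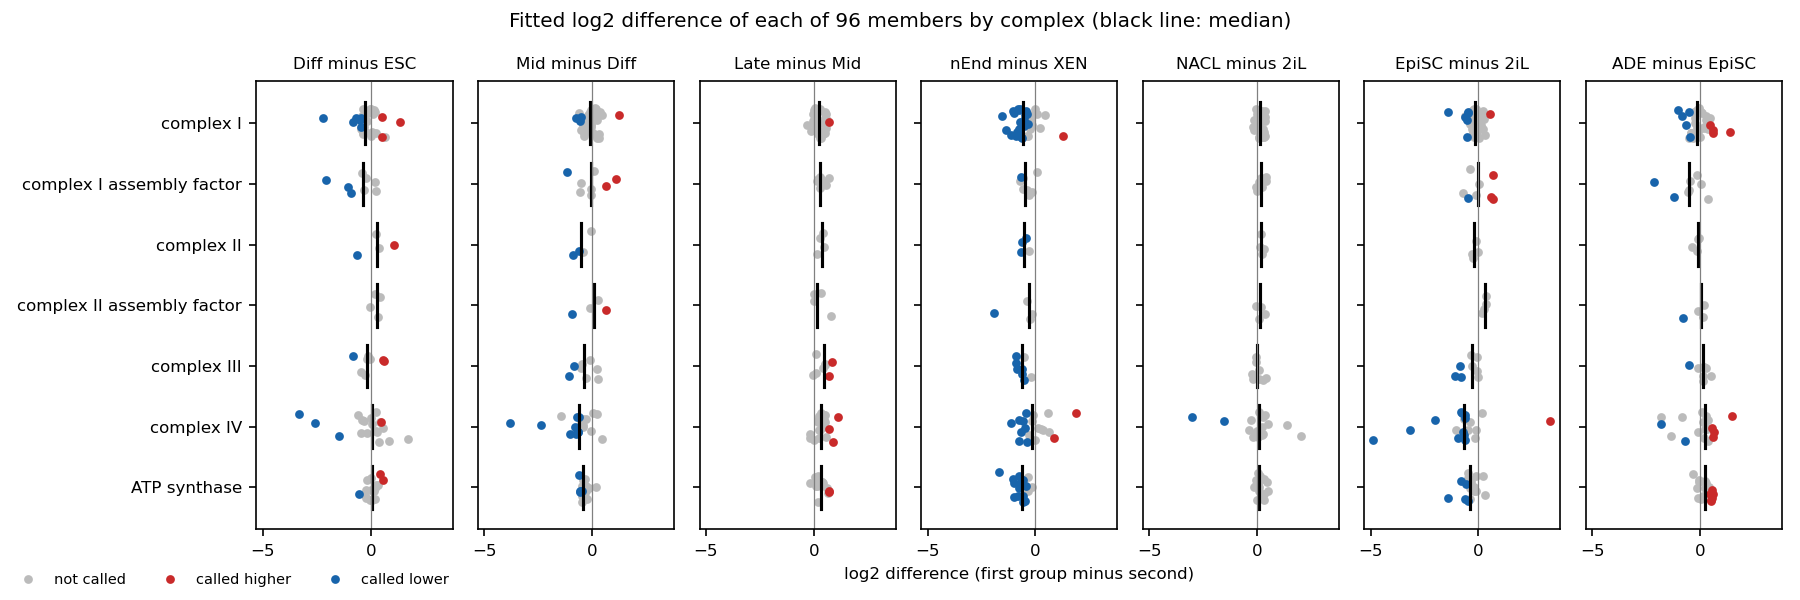
Fitted log2 difference of each of the 96 tested members in 7 comparisons, by complex; each point is a gene, red is called higher, blue called lower, grey not called, and the black line is the median of the complex. The nEnd minus XEN panel holds 57 blue points, and EpiSC minus 2iL holds 11 blue complex IV points.

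Mid minus Diff asks what expansion of the differentiated cultures changed. It shares the Diff arrays with Diff minus ESC. Of 96 members, 4 rose and 23 fell, beside 12.3% of all genes called higher and 16.8% called lower, and the median difference was -0.29, beside -0.06 over all genes. By complex, 9 of 19 complex IV genes fell (median -0.61), as did 5 of 17 ATP synthase genes (median -0.43), 3 of 36 complex I subunits (median -0.09), 2 of 4 complex II subunits and 2 of 8 complex III subunits.

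Of the complex IV genes, Ndufa4l2 had 0.05, -0.17 and -0.49 in Diff and -4.35, -4.26 and -3.43 in Mid. It lay lower in all Mid arrays (log2 difference -3.81, adjusted p = 0.0078, limma), but only 1 of the 3 was well above background, so the size is uncertain. It was -4.24 to -1.71 over 18 other settings, and the call was lost with the other background correction and with the authors' values. Cox4i1, Cox5a, Cox5b and Cox7b, which encode subunits found in all tissues, fell by 0.69, 0.61, 0.76 and 0.67. Cox4i1 had 8.39, 8.19 and 8.00 in Diff and 7.69, 7.27 and 7.55 in Mid, with no overlap. Cox8c, a testis isoform, was well above background on 2 of 3 Diff arrays and on no Mid array. Its fall was thus at least 1.41-fold in the first fit (adjusted p = 0.013, limma). Such a bound sets the brighter group's mean against the lowest signal that counts as above background, and holds for the first fit alone. Over 18 other settings the log2 difference of Cox8c was -2.99 to -0.35.

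In complex III, Uqcrb, a ubiquinone-binding accessory subunit, had 6.16, 5.72 and 6.14 in Diff and 5.03, 4.50 and 5.31 in Mid. These groups did not overlap, and the gene fell to a level 2.08-fold lower (adjusted p = 0.00046, limma). Uqcrfs1, which had risen in Diff, fell by 0.84. In complex II, Sdha, the flavoprotein, fell by 0.90 and Sdhd by 0.63.

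Some members that had fallen in Diff were higher again in Mid. Ndufc2 had 3.83, 4.63 and 4.08 in Mid against 2.50, 3.12 and 3.25 in Diff (log2 difference 1.22, adjusted p = 0.00012, limma). Ndufaf3 had 1.02, 1.11 and 1.02 in Mid against 0.35, -0.44 and 0.01 in Diff (1.08, adjusted p = 0.0031, limma). Neither overlapped between groups, and both stayed below their 3 ESC values. Ndufaf1, a factor for the membrane arm, and Sdhaf2, which places the flavin on Sdha, rose by 0.62 each, and Ndufaf2 fell by 1.19. Ndufaf1 and Ndufaf2 overlapped between groups. The calls of Ndufaf1 and Sdhaf2 were lost in 6 and 10 of 19 other settings, those of Cox5a and Cox5b in 8 of 19 each, that of Cox7b in 7, that of Sdhd in 6 and that of Cox4i1 in 5, and that of Cox8c in 8 of 18. The difference of Cox4i1 was -0.11 with quantile normalization and -0.12 with the authors' values.

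The fall over the members as a group was not stable to the scaling. Under quantile normalization the median turned to 0.03 (all genes 0.03), with 14 members called higher and 9 lower, beside 14.9% and 14.4% of all genes. The authors' values gave a median of -0.01 (all genes 0.01) and again 14 and 9, beside 15% and 14% of all genes. Under all 5 scalings Ndufaf2, Uqcrb and Cox7c were called lower and Ndufc2 higher; Cox7c, a small complex IV subunit, is named here after its values were seen. Within scan days the median was -0.17 on the first and -0.42 on the second. Without Diff 2, Diff 3 or Mid 2, 15, 12 and 14 members were called lower, and without Mid 2, 2 were called higher. Markers of other cell types moved along with these members. Of 7 naive markers 4 fell, both markers shared by naive and primed cells fell (summed signal 17.1 to 34.2 in Diff and 3.86 to 6.92 in Mid), 3 of 5 primed markers fell, and of 4 trophoblast markers 2 rose and 1 fell. Their part in the result was not tested.

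Late minus Mid asks whether passaging from 7 to 10 to 14 to 15 went on changing the cultures, and it shares the Mid arrays with Mid minus Diff. Of 96 members, 8 rose, beside 3.78% of all genes called higher, and 0 fell, beside 3.07% called lower. Without adjustment, 31 had a p under 0.05 in limma, in either direction. The share of all genes at that threshold is not given, for this count or those below. Such counts therefore show nothing particular to the members. The median difference was 0.29, beside 0.12 over all genes. The risers included 3 complex IV genes, 2 of complex III, 2 of the ATP synthase and 1 of complex I.

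Cox7a1, the muscle isoform, had 3.35, 3.55 and 3.55 in Mid and 5.06, 3.85 and 4.94 in Late. Late 2 lay nearer to Mid than to the other Late arrays, without overlap (log2 difference 1.13, SE 0.32, adjusted p = 0.034, limma). Cox5b had 5.83, 5.56 and 5.34 in Mid and 6.66, 6.18 and 6.52 in Late (0.88, adjusted p = 0.026). Uqcrfs1 had 4.17, 3.90 and 4.82 in Mid and 5.32, 4.83 and 5.20 in Late (0.82), and Atp5h, a stalk subunit of the ATP synthase, had 6.62, 6.29 and 6.17 in Mid and 7.34, 6.77 and 7.14 in Late (0.72). Each of these 4 was higher in all Late arrays than in all Mid arrays.

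Same-numbered Late and Mid arrays deviated together (r = 0.22, 0.13 and 0.14 over all genes). With that replicate number as a block, fitted on these 6 arrays, 0 members were called and 19 had an unadjusted p under 0.05 in limma; the adjusted p of the 4 named genes lay between 0.15 and 0.18. Fitted on these arrays without the block, 0 were called as well, with 20 at an unadjusted p under 0.05. The median stayed above 0 under all 5 scalings (0.08 to 0.29), with 0 calls when arrays were centred on their median. Within slides 1 and 3 it was 0.33 and 0.36. The count of calls was 4 without Mid 1, 12 without Late 2, and 0 without Mid 2, Late 1 or Late 3.

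nEnd minus XEN asks how the passaged endoderm cultures, Mid and Late with equal weight, differ from the XEN line, and it shares those arrays with the comparisons above. Most of the respiratory chain was lower in nEnd: of 96 members 57 were lower and 3 higher, beside 24.5% of all genes called lower and 16.6% called higher. The median difference was -0.54, beside -0.03 over all genes. Line and medium differ together between these groups and cannot be told apart. The fit counted every Mid and Late array as a separate sample. Same-numbered Mid and Late arrays may come from the same series of differentiation, so these p-values may be too small.

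In the first fit the lower members spanned all complexes, but no complex II subunit was called lower under every scaling. The lower members were 24 of 36 complex I subunits (median -0.57), 3 of 4 complex II subunits (-0.54), 6 of 8 complex III subunits (-0.61), 8 of 19 complex IV genes (-0.13) and 14 of 17 ATP synthase genes (-0.61). Of the assembly factors, 1 of 8 for complex I and 1 of 4 for complex II were lower.

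Atp5o, the stalk subunit that holds the catalytic head of the ATP synthase, had 4.44, 4.15 and 4.10 in Mid, 4.82, 4.43 and 4.77 in Late and 6.34, 5.80 and 6.34 in XEN. All nEnd arrays lay below all XEN arrays, and the gene was 3.27-fold lower (log2 difference -1.71, SE 0.17, adjusted p = 2.4e-08, n = 6 and 3, limma). The catalytic head genes Atp5a1 (-0.61) and Atp5b (-0.48) were lower too, the latter with overlapping groups and a call lost in 6 of 22 other settings. The call of Atp5a1 was lost in 2 of 22, quantile normalization and the authors' values.

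In complex I, Ndufa5, an accessory subunit of the matrix arm, had 5.73, 5.55 and 5.23 in Mid, 6.16, 5.82 and 6.05 in Late and 7.67, 6.73 and 6.99 in XEN, again without overlap (-1.37, adjusted p = 9.2e-06, limma). Ndufc2 had 5.69, 5.59 and 5.82 in XEN, above every nEnd array (-1.54). The core subunits Ndufs1 (-0.75) and Ndufv1 (-0.50), which carry electrons from the NADH site towards ubiquinone, were lower. The call of Ndufv1 was lost in 3 of 22 other settings, over which its difference was -0.86 to -0.06. Against the rest, Ndufa6, an accessory subunit of the matrix arm, had 4.20, 4.30 and 5.10 in XEN and 5.69 to 6.11 over the 6 nEnd arrays, with no overlap (1.29, adjusted p = 5e-05, limma).

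In complex II, Sdha (-0.68), Sdhb (-0.43) and Sdhc (-0.64) were lower. The Sdhb groups overlapped, and its call was lost in 9 of 22 other settings. Those of Sdha and Sdhc were lost in 4 and 1 of 22, with quantile normalization among them for both. Sdhaf3, a factor for the iron-sulfur subunit, had 0.40, 0.09 and 0.21 in XEN against -2.28, -2.35 and -1.56 in Mid and -1.27, -1.42 and -1.17 in Late, the largest fall among the members here (-1.91, adjusted p = 2.8e-06, limma). In complex III the core genes Uqcrc1 (-0.54) and Uqcrc2 (-0.89) and the Rieske gene Uqcrfs1 (-0.87) were lower, the call of Uqcrc1 being lost in 9 of 22 other settings.

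Complex IV was divided. Ndufa4 (-1.11), Cox7a2 (-0.78) and Cox5b (-0.76) were lower, and 2 isoforms were higher. Cox7a1 had 3.17, 3.13 and 3.25 in XEN, below every Mid and Late array (0.86, adjusted p = 0.016, limma). Cox7b2 had -3.24, -7.13 and -4.81 in XEN and -3.88 to -2.53 over the nEnd arrays, so the groups overlapped (1.88, adjusted p = 0.0072, limma). Only 1 of the 3 XEN arrays was well above background for it, the difference was 0.17 to 2.79 over 21 other settings, and the call was lost in 6 of them. Cox4i1 had no call, at -0.13, and turned to 0.40 with a call under quantile normalization.

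The count of lower members moved with the scaling. It was 60 with arrays centred on their median, beside 29.9% of all genes, and 53 with the other background correction, beside 22.4%. It was 24 of 96 (25%) with quantile normalization, beside 19.6% of all genes, and 28 of 93 (30.1%) with the authors' values, beside 20.7%. These last 2 scalings called 12 and 11 members higher (12.5% and 11.8%), beside 18.9% and 18% of all genes. Under all 5 scalings the members' median lay below 0 and below that of all genes, with a difference of -0.51 to -0.16. Of 93 members measured under all 5, 22 were called lower in every one and 1 (Ndufa6) higher. The 22 held Ndufa1, Ndufa5, Ndufa9, Ndufb4, Ndufb5, Ndufb8, Ndufb9, Ndufc2, Ndufs1, Ndufs4 and Ndufs8 of complex I, Uqcrb, Uqcrc2 and Uqcrfs1 of complex III, Ndufa4 and Cox7a2 of complex IV, Atp5h, Atp5md, Atp5mpl and Atp5o of the ATP synthase, and the assembly factors Ndufaf5 and Sdhaf3; those not named above are listed for this property after their values were seen. The median was -0.47 within the first scan day and -0.68 within the second. Without Mid 3, 5 members were called higher. Of 4 trophoblast markers 3 were higher in nEnd, with a summed signal of 1.14 to 4.18 multiples of the array's 75th percentile against 0.232 to 0.394 in XEN, where 1 was well above background on no array. The 2 markers shared by naive and primed stem cells had a summed signal of 3.86 to 9.61 in nEnd against 0.0382 to 0.0652 in XEN, and in Late and XEN 1 of the 2 was well above background on no array; 1 was called higher (Pou5f1, with mean levels of 2.44 in Mid, 3.14 in Late and -4.68 in XEN), as were 3 of 7 naive markers. The part of these markers in the result was not tested.

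**Figure D3:**
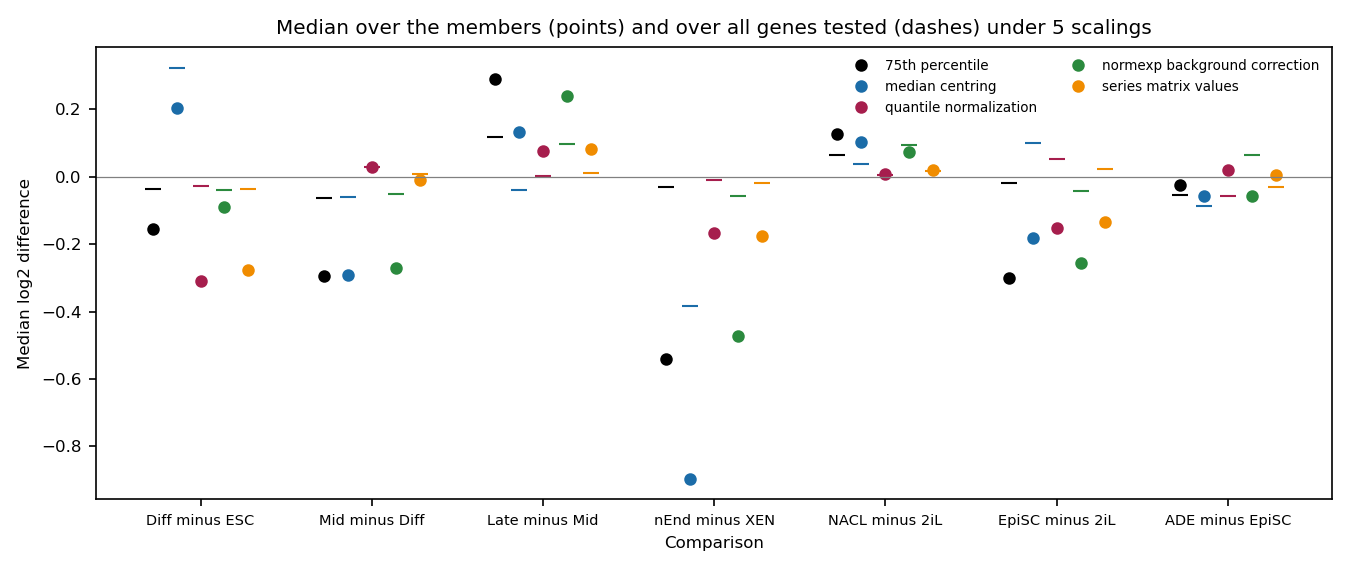
Median log2 difference over the members (points) and over all genes tested (dashes) in 7 comparisons, in colours for 5 scalings of the arrays. The points of nEnd minus XEN run from -0.90 to -0.17 and those of EpiSC minus 2iL from -0.30 to -0.13, all below 0, while those of Diff minus ESC and Mid minus Diff lie on both sides of 0.

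NACL minus 2iL asks what a stable Activin, CHIRON and LIF culture does to stem cells of the same 3 lines. Of 96 members 0 were higher, beside 4.12% of all genes, and 2 were lower, beside 4.13%. Without adjustment, 10 had a p under 0.05 in limma, in either direction. The share of all genes at that threshold is not given. Both members called lower were complex IV isoforms. Cox7b2, the testis form of subunit 7B, had -1.26, -1.60 and 0.24 in 2iL and -4.05, -4.05, -4.09 and -3.28 in NACL, which lay apart (log2 difference -3.00, adjusted p = 0.002, limma), with 3 of the 4 NACL arrays well above background. Cox7a1 had 5.0, 5.97 and 5.62 in 2iL and 3.11, 4.60, 3.94 and 4.27 in NACL, also without overlap (-1.55, adjusted p = 0.0018). With the cell line as a block, fitted on only the arrays compared, Cox7b2 kept its call (-2.92, adjusted p = 0.022, limma). Cox7a1 did not (-1.47, adjusted p = 0.18). Fitted on these arrays without the block, Cox7a1 lost its call as well, so its loss cannot be assigned to the line. Both were called under all 5 scalings. The size for Cox7b2 is uncertain, at -3.36 to -1.03 over 18 other settings.

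The members' median was 0.13, beside 0.06 over all genes. Without NACL 4, 7 members were called higher and the median was 0.25. The share of all genes called in that fit is not given here. Within slide 5 the median was 0.23, and within slide 6, which held NACL 4 and 1 array of 2iL, it was -0.18. These 2iL and NACL arrays of slide 6 are the only E14-NanogGFP arrays of their groups. Line, slide and array therefore cannot be told apart here. In the NACL group Ndufa4l2 had -0.03, 3.77, 3.69 and -1.88 and Cox6a2 had 2.44, -0.98, -2.98 and -2.13, a spread within the group that exceeded most differences between groups. The arrays with Ndufa4l2 above 3 were 1 of HVMC and 1 of E14.

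EpiSC minus 2iL asks how primed epiblast stem cells differ from naive stem cells. It shares the 2iL arrays with NACL minus 2iL. The fall was heaviest in complex IV: 11 of its 19 genes were lower and 1 higher, with a median of -0.68. Over all 96 members 26 were lower and 5 higher, beside 20.1% of all genes called lower and 21.5% called higher, and the median was -0.30, beside -0.02 over all genes. The other falls were in 6 of 36 complex I subunits (median -0.16), 3 of 8 complex III subunits (-0.32), 5 of 17 ATP synthase genes (-0.38) and 1 complex I assembly factor. The EpiSC line differs from the 2iL lines, so line and state cannot be told apart.

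Of the complex IV subunits used in most tissues, Cox5a had 8.13, 8.37 and 8.19 in 2iL and 7.18, 7.27 and 7.47 in EpiSC. It was 1.90-fold lower without overlap (log2 difference -0.93, SE 0.19, adjusted p = 0.00046, n = 3 and 3, limma). Cox4i1 had 7.46, 7.74 and 8.00 in 2iL and 7.12, 6.95 and 7.21 in EpiSC (-0.64), Cox6a1 had 9.06, 8.69 and 8.89 against 8.02, 8.13 and 8.34 (-0.72), and Cox7b had 6.99, 6.74 and 6.99 against 6.06, 6.16 and 6.05 (-0.82). In each of these 4 genes every EpiSC array lay below every 2iL array. Cox7a2 (-0.77), Ndufa4 (-0.64) and Cox6b1 (-0.63) were lower too. All 7 of these genes lost their call when arrays were centred on their median, and Cox4i1 lost it in 4 and Ndufa4 in 3 of 17 other settings.

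The isoforms moved further and in both directions. Cox7b2 was well above background on all 2iL arrays and on no EpiSC array (-6.32, -5.66 and -5.32). In the first fit it was at least 17.0-fold lower (adjusted p = 1.1e-06, limma). Its log2 difference was -5.26 to -1.52 over 16 other settings, so that bound does not hold in all of them. Cox7a1 had 3.40, 3.56 and 3.62 in EpiSC against 5.0, 5.97 and 5.62 in 2iL, 4.01-fold lower (adjusted p = 2.3e-05). Cox8c, well above background on 2 of 3 2iL arrays and on no EpiSC array, was at least 2.32-fold lower in the first fit. Its difference was -4.05 to -0.57 over 16 other settings, and the call was lost in 2 of them. Cox6a2 went the other way, with -3.52, -3.37 and -2.03 in 2iL and 0.37, 0.34 and 0.33 in EpiSC, 10.0-fold higher (adjusted p = 0.0027).

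In complex III the core gene Uqcrc1 had 5.62, 5.69 and 5.40 in 2iL and 4.85, 4.32 and 4.27 in EpiSC, a fall of 2.13-fold without overlap (adjusted p = 0.00056, limma). In the ATP synthase the c subunit gene Atp5g1 had 7.76, 8.12 and 7.66 in 2iL and 6.67, 6.45 and 6.24 in EpiSC, a fall of 2.63-fold without overlap (adjusted p = 1e-05). The c subunit gene Atp5g3 fell by 0.64 and the remaining such gene, Atp5g2, had no call. In complex I, Ndufb2 of the membrane arm had 4.38, 4.59 and 3.07 in 2iL and 2.24, 3.83 and 1.75 in EpiSC, and these overlapped (-1.41, adjusted p = 0.0055). The assembly factors Ndufaf3 (0.68), Ndufaf6 (0.68) and Ndufaf7 (0.59), the last of which methylates a core subunit, were higher. Their calls were lost in 8, 5 and 3 of 17 other settings.

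Centring on the median left 5 members lower and 1 higher, beside 12.4% and 18.5% of all genes, and the authors' values gave 22 and 8, beside 20.2% and 23.7%. The members' median stayed below 0 under all 5 scalings. Cox7b2, Cox7a1, Ndufb2 and Atp5g1 were called lower and Cox6a2 higher under all 5. The median within slides 5 and 6 was -0.30 and -0.23. Without EpiSC 3, 3 members were called higher. Of 6 fibroblast or feeder markers, 5 were tested and 3 were higher in EpiSC; their summed signal, in multiples of the array's 75th percentile, was 1.94 to 3.01 in 2iL and 15.9 to 22.2 in EpiSC, with 1 marker well above background on no 2iL array. The part of such cells in these results was not tested.

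**Figure D4:**
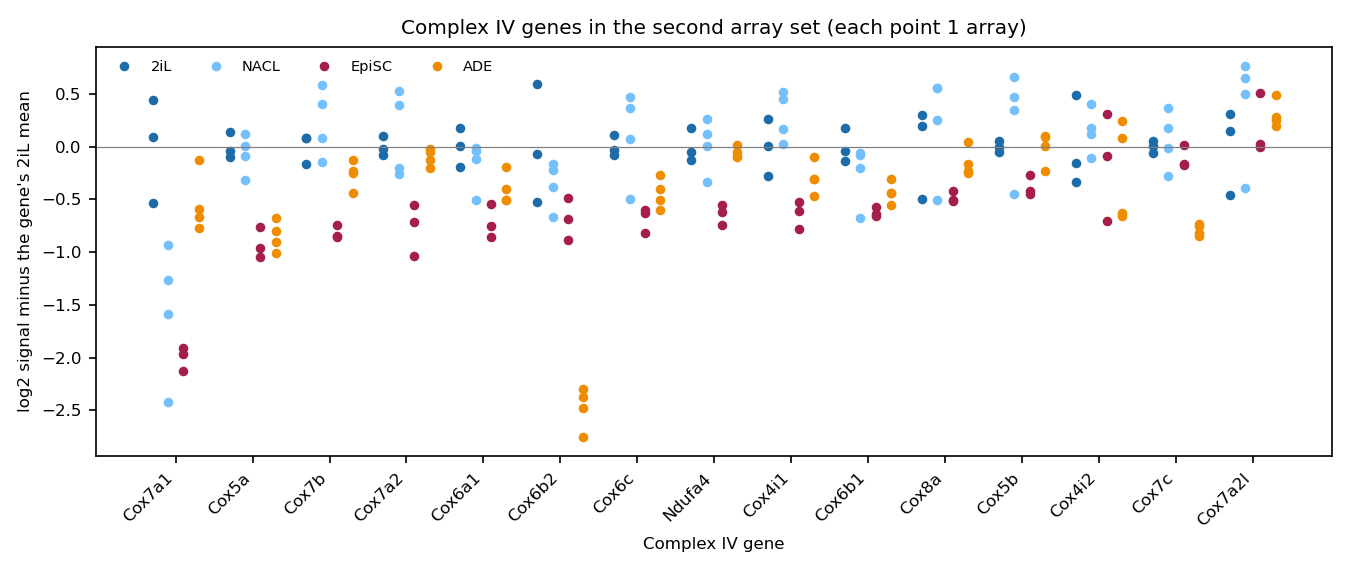
Log2 signal of 15 complex IV genes (Cox6a2, Cox7b2, Cox8c and Ndufa4l2 are left out) on the arrays of the second set, minus the gene's 2iL mean; each point is an array, and colours mark 2iL, NACL, EpiSC and ADE. The EpiSC points of Cox5a, Cox7b, Cox4i1 and Cox6a1 lie below all 2iL points; Cox6b2 is lowest in ADE.

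ADE minus EpiSC asks what 4 days of anterior endoderm differentiation changed, and it shares the EpiSC arrays with EpiSC minus 2iL. Of 96 members, 14 rose and 11 fell, beside 16.9% of all genes called higher and 20.7% called lower, with a median of -0.02 beside -0.05 over all genes. The ATP synthase had 6 of 17 genes higher (median 0.23) and complex IV 4 of 19 higher and 2 lower. Complex I had 4 of 36 higher and 5 lower, and of its assembly factors 2 of 8 were lower.

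Cox7a1 had 3.40, 3.56 and 3.62 in EpiSC and 4.86, 4.76, 5.40 and 4.94 in ADE, a rise of 2.76-fold without overlap (adjusted p = 0.00044, n = 4 and 3, limma). Its ubiquitous counterpart Cox7a2 had 5.57, 5.41 and 5.08 in EpiSC and 5.92, 6.10, 6.07 and 5.99 in ADE (0.67). Ndufb2 rose by 1.41, with 2.24, 3.83 and 1.75 in EpiSC and 4.03, 4.41, 3.57 and 4.05 in ADE, which overlapped. Ndufb4, another membrane arm subunit, rose by 0.62.

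Cox6b2 had 3.53, 3.73 and 3.93 in EpiSC and 1.66, 2.04, 1.94 and 2.12 in ADE, a fall of 3.46-fold without overlap (adjusted p = 0.00012, limma). Its counterpart Cox6b1 had no call. Ndufaf6 had 2.92, 2.65 and 3.42 in EpiSC and 0.72, 1.02, 0.52 and 1.22 in ADE, a fall of 4.36-fold (adjusted p = 3.3e-08). Ndufaf7 had 3.02, 2.75 and 3.09 in EpiSC and 1.76, 1.74, 1.80 and 1.61 in ADE, a fall of 2.34-fold (adjusted p = 1.1e-06). Ndufc2 had 5.72, 5.69 and 5.80 in EpiSC and 4.95, 4.78, 4.52 and 4.58 in ADE (-1.03). None of these 4 falls had overlapping groups, and all 4 were called under all 5 scalings, as were the rises of Cox7a1 and Ndufb2.

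Centring on the median left 2 members higher and 4 lower, beside 11.5% and 15.4% of all genes, and the other background correction gave 9 and 12, beside 16% and 18.9%. The members' median lay on both sides of 0 over the 5 scalings (-0.06 to 0.02) and was -0.003 and -0.02 within slides 5 and 6. Without EpiSC 3, 7 members were called higher. Of the 5 tested fibroblast or feeder markers 3 fell; their summed signal in ADE was 4.11 to 17.5. Of 4 trophoblast markers 3 were higher and 1 lower in ADE, with a summed signal of 6.84 to 11.5 against 2.39 to 3.08 in EpiSC. Of 5 primed markers 3 rose and 2 fell, with a summed signal of 392 to 568 in ADE against 108 to 122 in EpiSC. Both markers shared by naive and primed cells fell, from 28.6 to 47.1 in EpiSC to 1.44 to 8.13 in ADE. The part of cells with any of these markers was not tested.

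Whether endoderm induction moved a member differently from primed than from naive cells was tested as the difference of both differences, ADE minus EpiSC less Diff minus ESC. Here 9 members were higher, beside 14.9% of all genes, and 7 lower, beside 21.9%. The cell line is the one labelled HRHnG or HRHNG, but medium, duration and array set differ together between both inductions and cannot be told apart. Cox7a1 rose in ADE and had no call in Diff, and the difference was 2.05 (SE 0.44, adjusted p = 0.00078, limma). Ndufaf3 (1.56) fell in Diff and had no call in ADE, and Ndufc2 (1.18) fell in both. Ndufb4 and Atp5g1 rose in ADE and fell in Diff, with differences of 1.32 and 1.06; the rise of Atp5g1 in ADE lost its call in 10 of 18 other settings and its fall in Diff in 10 of 19. On the other side stood Ndufaf6 (-1.74) and Ndufaf7 (-1.46), which fell in ADE, and Ndufa8 (-1.14) and Sdhd (-1.1), which rose in Diff. Of these, Cox7a1, Ndufaf6, Ndufaf7, Ndufa8 and Sdhd were called under all 5 scalings. The split of calls was 28 higher and 6 lower with quantile normalization and with the authors' values, and 1 and 5 with arrays centred on their median. All genes beside these were called at 16.6% higher and 21.5% lower, 19% and 21.4%, and 7.92% and 22.1%.

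**Figure D5:**
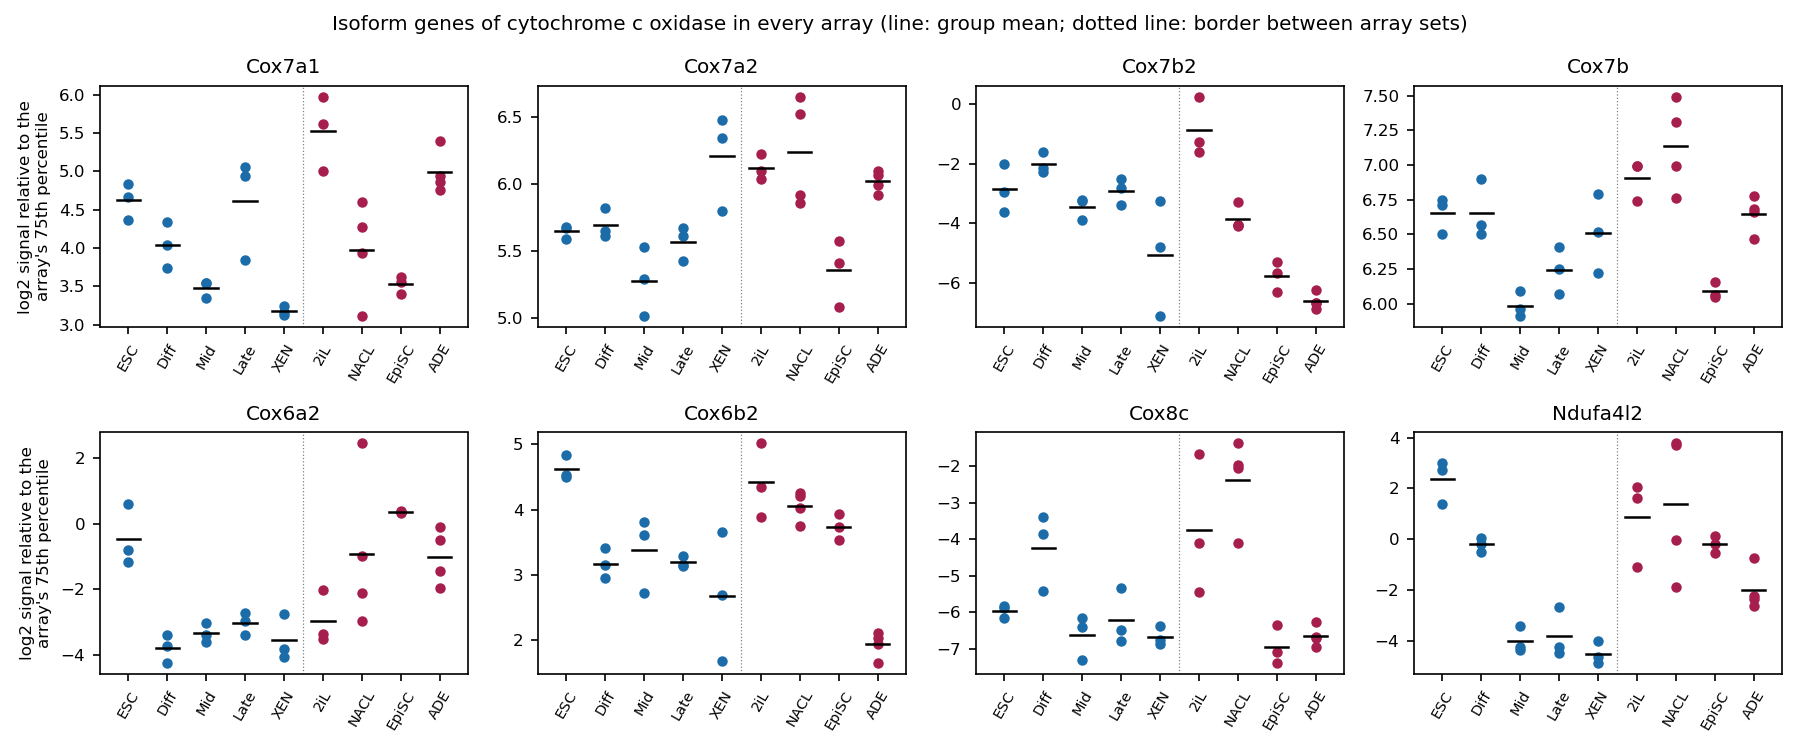
Log2 signal relative to the array's 75th percentile for 8 isoform genes of cytochrome c oxidase on all 29 arrays; points are arrays, lines are group means, and the dotted line parts the array sets. In the first set Cox7a1 has its lowest group mean in XEN, and in the second its highest in 2iL and its lowest in EpiSC; Cox7b2 is well above background on no EpiSC or ADE array; levels are not to be set against each other between genes, or between array sets.

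The isoform genes of complex IV can be followed through all groups. Over the 5 groups of the first set, the group means of Cox6a2 ran from -3.78 in Diff to -0.45 in ESC, with XEN (-3.55), Mid (-3.35) and Late (-3.02) following Diff, each within the spread of the next. In the second set Cox6a2 ran from -2.97 in 2iL to 0.35 in EpiSC, with NACL (-0.91) and ADE (-1.0) between them and the 4 NACL arrays spanning both ends. Cox6a1, the counterpart, ran from 8.61 in Mid to 9.09 in Late, and from 8.16 in EpiSC to 8.88 in 2iL. Cox6b2 stood highest in ESC (4.62) in the first set and lowest in XEN (2.68), where the 3 arrays had 1.69, 2.69 and 3.65. In the second it fell in order from 2iL (4.42) through NACL (4.06) and EpiSC (3.73) to ADE (1.94), with only ADE free of overlap with its neighbour. Cox4i2, the lung and low-oxygen form of subunit 4, had no call in any comparison and group means from -0.49 in Mid to -0.11 in ESC and from -0.78 in ADE to -0.39 in NACL. Cox7a2l, which joins complexes III and IV, had no call either.

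Other genes of the pathway were followed in lists whose counts are given as descriptions. They are to be read beside the shares of all genes given for each comparison above. Of 32 tested assembly factors whose symbols lie outside the rule, 8 rose (25%) and 8 fell (25%) in Diff minus ESC, beside 23.5% and 18.9% of all genes, among them Atpaf1, a chaperone of the ATP synthase head (-2.42), and Sco2, a copper carrier for complex IV (1.72). Atpaf1 rose again in Mid minus Diff (1.92). In nEnd minus XEN 16 were lower (50%, all genes 24.5%) and 3 higher, with Nubpl, an iron-sulfur factor of complex I, at -1.72 and Surf1, a complex IV factor, at 1.74. In ADE minus EpiSC 11 fell (34.4%, all genes 20.7%) and 1 rose (Cox19, 1.32), with Cox18 at -1.85 and Nubpl at -1.59. In EpiSC minus 2iL 5 rose and 7 fell (15.6% and 21.9%, all genes 21.5% and 20.1%), with Coa7 at -1.24.

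Of 14 enzymes of the TCA cycle, which feeds NADH and succinate to the chain, 10 were lower (71.4%, all genes 24.5%) and 1 higher in nEnd minus XEN, with a median of -0.78. The succinyl-CoA ligase subunits Sucla2 (-1.94) and Suclg2 (-1.82) and Dlst of the oxoglutarate dehydrogenase (-1.66) led these. In every other comparison between groups at most 4 of the 14 were called in a direction. Idh2, the mitochondrial NADP isocitrate dehydrogenase, fell in Diff minus ESC (-0.86), NACL minus 2iL (-0.76) and EpiSC minus 2iL (-0.80).

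Of the 15 regulators of mitochondrial genes, Esrrb, a receptor of the naive state, fell in Diff minus ESC (-3.19), Mid minus Diff (-4.03) and EpiSC minus 2iL (-7.68) and was higher in nEnd minus XEN (3.26). Esrra rose in Diff minus ESC (1.85) and in ADE minus EpiSC (1.11). In Diff minus ESC 1 of the 15 rose and 4 fell (6.67% and 26.7%, all genes 23.5% and 18.9%), with Tfb1m at -0.96. In ADE minus EpiSC 2 rose and 2 fell (13.3% each, all genes 16.9% and 20.7%), with Esrrg at 3.22 and Tfb1m at -1.65. Ppargc1a, a coactivator of mitochondrial genes, rose in Mid minus Diff (3.43) and was higher in nEnd minus XEN (2.50), while Ppargc1b was lower there (-2.57). In nEnd minus XEN 5 of the 15 were lower (33.3%, all genes 24.5%) and 3 higher (20%, all genes 16.6%). The part of the regulators in the members' levels was not tested. In EpiSC minus 2iL 7 of the 15 fell (46.7%, all genes 20.1%) and 1 rose, with Pprc1 at -1.12 and Tfb1m at 0.91.

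Of 10 electron carriers and related genes, the somatic cytochrome c gene Cycs was lower in nEnd minus XEN (-1.97). The testis gene Cyct fell in Diff minus ESC (-1.57), Mid minus Diff (-2.85) and EpiSC minus 2iL (-6.37), and was higher in nEnd minus XEN (1.12). Etfdh and Etfa, which pass electrons from fatty acid oxidation to ubiquinone, rose in Diff minus ESC (1.65 and 1.51) and in ADE minus EpiSC (0.67 and 1.1). Higd1a was lower in nEnd minus XEN (-1.05) and ADE minus EpiSC (-0.92) and higher in EpiSC minus 2iL (0.84).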

How the data were processed

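RNA of 29 cell culture samples was hybridised singly to Agilent 1-colour (Cy3) arrays. The deposited files hold probe intensity, background-corrected by Agilent Feature Extraction 11.0.1.1 in the first array set and 12.0.1.1 in the second, per the file headers; the submitters' processing notes name version 9.1. The authors' own deposited values were read as log2, with near-equal array medians (5.94 to 5.95). Their log base, background step and normalization are not given in the sources used here, and against the scanner values they correlated at 0.909 to 0.937 on each array. They were an alternative only.

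From the scanner files, log2 intensity was taken without control and outlier spots, and the 75th percentile of each array was subtracted. Of 55681 probes, 27636 had 1 symbol through their RefSeq or other accession, 33 had conflicting symbols and 28012 had none, and the last 2 kinds were left unnamed. A gene was represented by its probe with the highest mean, which mattered for 24 members with several probes. Group means of all 29 arrays were fitted in one limma 3.58.1 model (lmFit, eBayes; R 4.3.3), with Benjamini-Hochberg adjustment over 16333 genes and a threshold of 0.05. Files were read with Python 3.11.15 (numpy 2.4.6, pandas 2.3.3) and drawn with matplotlib 3.10.9. The fit was tested on simulated data. The number of arrays, 3 or 4 a group, limits the precision.

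The members and lists were chosen with earlier results of these data known, so no test over the list was made. Named members were the 4 called members with the largest rise and the 4 with the largest fall in each comparison, together with isoform genes and core subunits of each complex. The values of 1 member under this rule are not reported here. Of the other lists only called genes among the 3 largest changes were named; probes for subunits encoded by mitochondrial DNA were not analysed here. Alternatives were another scaling (the median, quantile normalization), background correction (normexp, offset 50), the authors' values, filters on dim probes, the mean of a gene's probes, slide, scan day, cell line or replicate number as a block, only the arrays compared, and leaving out each array. The first fit had no pairing, also for Late minus Mid, and pairing entered only through the replicate block. In that setting same-numbered Mid and Late arrays were read as pairs. They correlated above 0.1 in their deviations from the group means (r = 0.22, 0.13 and 0.14). Each nEnd replicate also came from its own differentiation, per the labels. For the other comparisons not every same-numbered pair correlated above 0.1.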

Additional observations from a re-analysis of the deposited data

Results flagged for a closer look

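In the groups of 4 arrays, 98 sets of values of named members were examined for an array far from the others, and 6 had one, where chance gives about 1 in 20. NACL 4 held 4 of them: Ndufaf3 at 0.843, with the nearest other NACL array at 1.90; Atp5b at 8.43, with the nearest at 8.98; Ndufa6 at 4.62, with the nearest at 5.55; and Cox7b2 at -3.28, with the nearest at -4.05. This array also had the largest share of probes well above background in its group and was the only NACL array of E14-NanogGFP. Ndufa5 in NACL 1 had 5.90, with the nearest at 6.52, and Sdhc in ADE 2 had 4.15, with the nearest at 3.85.

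In 9 named members, the change with endoderm induction differed between primed cells (ADE minus EpiSC) and naive cells (Diff minus ESC). Most of them met the naming rule by having the largest called differences here, so this count largely follows from that rule. Of all 96 members, 9.38% were called higher and 7.29% lower, beside 14.9% and 21.9% of all genes. Members were thus called less often than all genes. The difference between both differences, tested in limma, was above 0 for Cox7a1 (2.05), Ndufaf3 (1.56), Ndufb4 (1.32), Ndufc2 (1.18) and Atp5g1 (1.06). It was below 0 for Ndufaf6 (-1.74), Ndufaf7 (-1.46), Ndufa8 (-1.14) and Sdhd (-1.1). Medium, duration and array set differ together between both inductions.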

How the results depend on the processing

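Over the counts and medians of the members, 206 values under other settings lay close to the first in size, and 74 did not. Except where the setting itself used fewer arrays or genes, the cause was not tested. The sign of a median was not part of that rule. The ADE minus EpiSC median was -0.02 at first and 0.02 under quantile normalization. Centring on the array median gave, as higher and lower calls with the median difference: Diff minus ESC 10, 3 and 0.20; Mid minus Diff 1 and 5; Late minus Mid 0, 0 and 0.13; nEnd minus XEN a median of -0.90; EpiSC minus 2iL 1, 5 and -0.18; ADE minus EpiSC 2 and 4; and the difference between inductions 1 higher. Quantile normalization gave Diff minus ESC 4, 39 and -0.31, Mid minus Diff 14, 9 and 0.030, Late minus Mid 4 higher and 0.076, nEnd minus XEN 12, 24 and -0.17, EpiSC minus 2iL a median of -0.15, and the difference between inductions 28 higher. The authors' values gave Diff minus ESC 4, 39 and -0.28, Mid minus Diff 14, 9 and -0.01, Late minus Mid a median of 0.083, nEnd minus XEN 11, 28 and -0.18, EpiSC minus 2iL 8 higher and -0.13, and the difference between inductions 28 higher. The normexp background correction gave 5 higher in Late minus Mid, a median of -0.25 in EpiSC minus 2iL and 9 higher in ADE minus EpiSC. Shares of all genes not given with a comparison above follow, as higher and lower. With median centring they were 7.76% and 10% in Mid minus Diff and 0.551% and 1.8% in Late minus Mid. The higher share in Late minus Mid was 2.88% with quantile normalization and 3.59% with normexp.

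With only genes well above background on all arrays, 1 member was lower in NACL minus 2iL. With the mean of a gene's probes the median of Diff minus ESC was -0.049. With the slide as a block, Diff minus ESC had 4 higher and a median of -0.27, Mid minus Diff 15 lower and -0.16, nEnd minus XEN 5 higher and the difference between inductions 19 higher (16 with the slide as a random block). With only the arrays compared, Mid minus Diff had 2 higher and 6 lower, Late minus Mid 0 higher, NACL minus 2iL 1 lower (also with the cell line as a block), EpiSC minus 2iL 1 higher, ADE minus EpiSC 19 lower and the difference between inductions 16 higher and 11 lower. With scan day 1 alone, an alternative added after seeing the data, Diff minus ESC had 2 higher and a median of -0.26, Mid minus Diff 2 higher, 9 lower and -0.17, and Late minus Mid 2 higher.

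In the paired comparison, Late minus Mid, the replicate block left 0 calls. Elsewhere the samples share only a number. There the replicate block gave 3 higher and 8 lower in Diff minus ESC, 1 and 3 in Mid minus Diff, 1 and 10 in EpiSC minus 2iL, and 2 higher in ADE minus EpiSC.

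Leaving out each array in turn gave these ranges. Diff minus ESC had 4 to 8 higher, 9 to 14 lower and medians of -0.19 to -0.09. Mid minus Diff had 2 to 3 higher, 12 to 24 lower and -0.38 to -0.24. Late minus Mid had 0 to 12 higher, 0 lower and 0.22 to 0.37. nEnd minus XEN had 2 to 5 higher, 39 to 63 lower and -0.64 to -0.39. NACL minus 2iL had 0 to 7 higher, 2 lower and 0.05 to 0.25. EpiSC minus 2iL had 3 to 5 higher, 20 to 24 lower and -0.33 to -0.25. ADE minus EpiSC had 7 to 13 higher, 9 to 11 lower and -0.03 to 0.02. The difference between inductions had 8 to 11 higher and 6 to 7 lower. Shares of all genes are not given for these fits, here or in the comparisons above. Nor are they given for the block, filter, probe mean and array settings. Those counts do not tell the members apart from all genes.

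Of 3537 values of named members under other settings, 3181 kept their status, and these include members called in neither fit. A further 276 lost a call and 75 gained one. With a call in either fit, 5 turned direction, all in nEnd minus XEN. They were Cox4i1 to 0.40 under quantile normalization and 0.40 with the authors' values, Cox6a1 to 0.32 with the authors' values, and Cox7b to 0.037 and 0.0033 under the same. Leaving out 1 array ended a call in 129 of 2219 such values, gave 17 and turned none. The 2219 again include members not called in the first fit. Cox8c, Cox7b2 and Ndufa4l2 were not well above background on some arrays, which limits the precision of their differences.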
